A study of Mus musculus with 23 samples.

Results

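Glucose transporters, glycolytic enzymes, lactate-handling proteins, oxygen sensors and hypoxia response genes were followed in the endometrium of 23 mouse uterine horns. The 34 genes were taken from a list of symbols and not by their values, and all 34 were among the 18682 features of the deposited count table and passed the filter on low counts. The horns came from female C57BL/6 mice in a study of endometrial repair, and RNA was sequenced in bulk from endometrium pressed out of each horn by hand. In 3 of the 4 groups ethanol had been used to damage the endometrium, an injection into the horn followed after 4 days, and tissue was taken 2 weeks later. The HG+ORG group (6 horns) received a hydrogel (HG) together with human endometrial organoids, the HG group (6 horns) received the hydrogel alone, and the PBS group (5 horns) received saline. The sources used here do not give what the SHAM horns (6) received, the age of the mice or which horns came from the same mouse. Total counts per horn ran from 7920918 to 14902952, with a median of 12701407, and the 34 genes together took 0.341 to 0.959% of them. The mouse alignment does not separate reads of human organoid cells from mouse reads.

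Glycolysis turns glucose into pyruvate in the cytosol and yields ATP without oxygen, with lactate as the end product when pyruvate is not burnt in mitochondria. When oxygen is short, the prolyl hydroxylases that mark HIF alpha subunits for destruction by the VHL ubiquitin ligase slow down, and the stabilised HIF factors switch on glucose transporters, glycolytic enzymes, lactate export and a set of stress genes. In the uterus these genes are best known from the shedding and repair of endometrium and from the decidual response around an implanting embryo.

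HIF factors bind DNA at a short core, ACGTG or GCGTG. The stretches below lie just upstream of annotated transcription starts of 5 of the genes and are shown because their values carry the pattern described next; capitals mark the core on the printed strand or its reverse complement (CACGT for the first core and CACGC for the second). They are from RefSeq, mouse build GRCm38.p6, an older build than the GRCm39 of the counts, and are written 5′ to 3′ in the direction of transcription, at chr8:45999851-46000010 (minus strand, Ankrd37), chr4:119108585-119108744 (plus, Slc2a1), chr11:120948907-120949066 (plus, Slc16a3), chr7:138909507-138909666 (minus, Bnip3) and chr7:46845644-46845803 (plus, Ldha).
Ankrd37: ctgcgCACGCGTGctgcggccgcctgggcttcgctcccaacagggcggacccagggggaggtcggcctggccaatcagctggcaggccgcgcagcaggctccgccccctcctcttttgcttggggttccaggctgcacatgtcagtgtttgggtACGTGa
Slc2a1: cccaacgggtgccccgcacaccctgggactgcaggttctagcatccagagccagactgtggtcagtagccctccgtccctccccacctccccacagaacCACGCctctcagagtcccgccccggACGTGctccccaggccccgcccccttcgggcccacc
Slc16a3: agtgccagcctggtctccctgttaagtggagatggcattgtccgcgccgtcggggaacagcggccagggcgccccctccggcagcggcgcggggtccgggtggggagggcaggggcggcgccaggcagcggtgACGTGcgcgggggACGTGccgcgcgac
Bnip3: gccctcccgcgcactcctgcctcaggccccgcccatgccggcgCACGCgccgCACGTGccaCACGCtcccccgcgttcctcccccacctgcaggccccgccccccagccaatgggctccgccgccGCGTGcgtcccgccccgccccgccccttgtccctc
Ldha: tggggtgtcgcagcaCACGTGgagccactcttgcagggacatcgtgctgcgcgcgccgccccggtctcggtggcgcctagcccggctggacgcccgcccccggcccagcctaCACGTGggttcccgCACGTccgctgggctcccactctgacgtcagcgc
Each printed stretch of 160 bases held at least 2 cores. The 5 genes were picked and do not stand for all 34. Gpi1 and Tpi1, also highest in SHAM horn 3, had no core in their windows. The last bases of the Ldha window printed here were not found in an annotated Ldha transcript, so this start is uncertain. Promoter windows from 250 bases before to 50 bases after the start were found for 31 of the 34 genes, and 36 of their 46 windows (78.3%) held a core on either strand, against 43.8% of all 32851 windows of this length in the RefSeq table. The windows of the listed genes were also richer in G and C, with a median of 62.8% against 52.7%, and both cores are rich in these bases. A core is a match of letters only and was not tested as a bound site.

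Horns of the same group differed widely, with a median within-group SD of 0.83 in log2 CPM over the 34 genes. HG+ORG horn 21, HG+ORG horn 18 and SHAM horn 3 stood above the rest in many of the genes. HG+ORG horn 21 was highest of all 23 horns in 3 genes and among the top 2 in 13, and HG+ORG horn 18 was highest in 7 and among the top 2 in 13. SHAM horn 3 was highest in 16 of the 34 genes and among the top 2 in 22. At least 2 times the median over all horns was reached by 18 genes in HG+ORG horn 21, by 14 in HG+ORG horn 18 and by 21 in SHAM horn 3. Of all 17697 genes tested with a median above 0, 14.4% reached it in HG+ORG horn 21, 23.1% in HG+ORG horn 18 and 10.8% in SHAM horn 3. HG horn 14 lay at the other end and was lowest of all horns in 8 genes. The colour map by horn shows these columns beside the others.

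**Figure D1:**
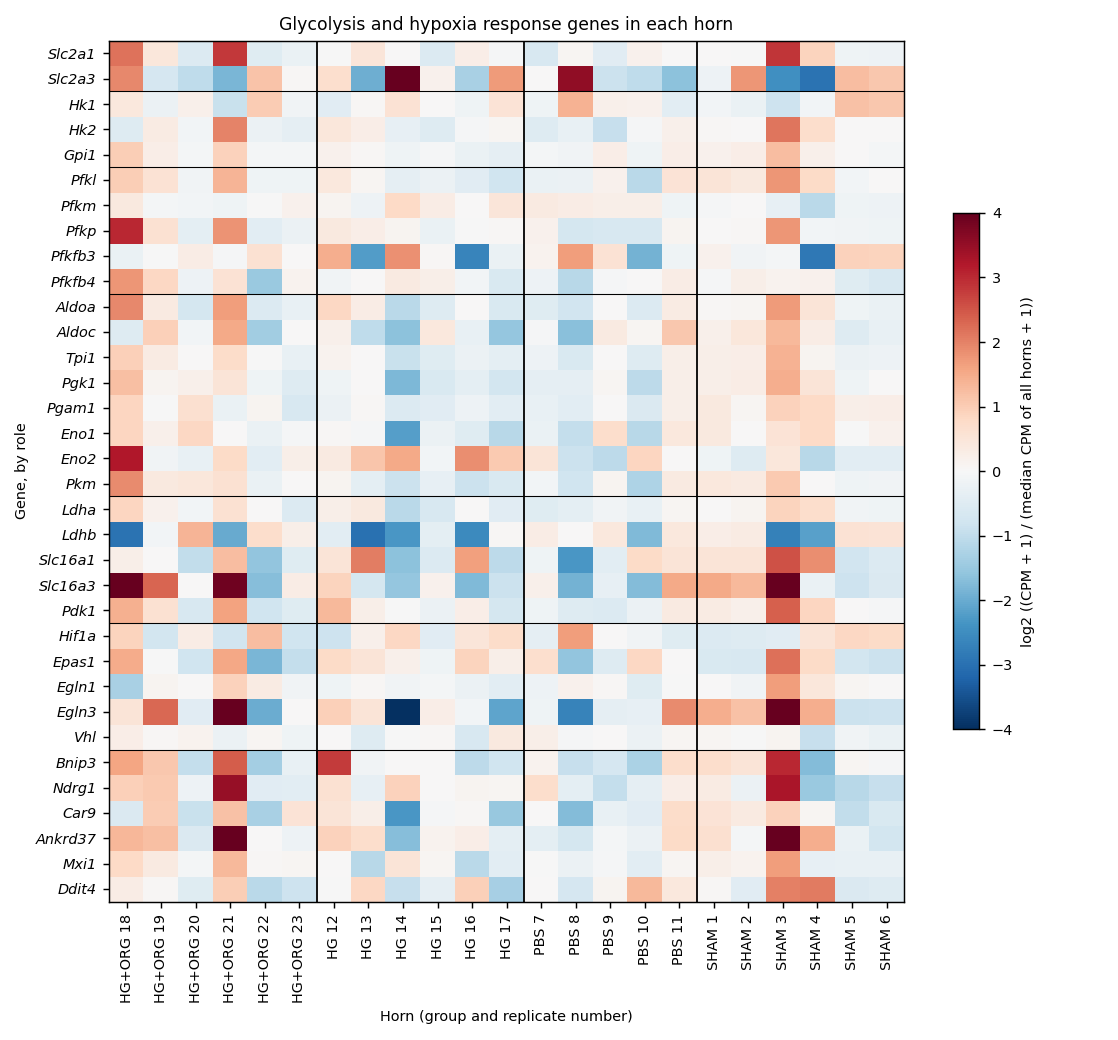
Level of each of the 34 genes (rows, grouped by role with thin lines) in each horn (columns, grouped by treatment with thick lines), as log2 of (CPM + 1) over (median CPM of all horns + 1), with the colour scale ending at -4 and 4. HG+ORG 18, HG+ORG 21 and SHAM 3 are red in most rows, and HG 14 is blue in many glycolytic rows and darkest red in Slc2a3.

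These 3 horns also stood apart in other genes. The mean log2 CPM of 10 cell cycle genes, Mki67 and Top2a among them, was 1.94 in HG+ORG horn 21 and 1.50 in SHAM horn 3, against 5.36 to 7.83 in the other 21 horns. Epithelial markers were highest in the same horns, with a mean log2 CPM over 10 genes of 9.86 in HG+ORG horn 21 and 9.98 in SHAM horn 3, against at most 9.31 elsewhere. HG+ORG horn 18 had the opposite, with an epithelial mean of 6.02 against at least 8.14 in the other 22 horns, and its 10 macrophage markers averaged 9.62, against 2.23 to 7.02 in the other 22. The summed macrophage markers ran from 260 to 22337 CPM in HG+ORG horns, 402 to 1134 in HG, 191 to 878 in PBS and 250 to 1106 in SHAM, with no marker of the list at 0 throughout a group. The summed cell cycle genes ran from 73.3 to 2828 CPM in HG+ORG, 545 to 1835 in HG, 637 to 1444 in PBS and 64.8 to 2327 in SHAM. The part of these differences in the levels given below was not tested, and in bulk tissue fewer cells of a type and less RNA per cell cannot be told apart. For the 34 genes, many results that rest on these horns are given with and without them, a choice made after their values were seen. Folds of the marker lists and of genes outside the 34 are given with all horns only, and may rest on these horns.

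Hypoxia response genes showed the pattern most clearly. Egln3, a prolyl hydroxylase that is itself a HIF target, had 1182 CPM in HG+ORG horn 21 and 1401 CPM in SHAM horn 3, against 2.36 to 311 CPM in the other 21 horns (CPM are counts scaled to the library total after TMM adjustment). Ankrd37, an ankyrin repeat protein and HIF target, had 96.0 CPM in HG+ORG horn 21 and 132 CPM in SHAM horn 3, against at most 9.75 CPM elsewhere. Ndrg1, a stress-induced differentiation gene, had 432 CPM in HG+ORG horn 21 and 375 CPM in SHAM horn 3, and no other horn exceeded 79.8 CPM. All 3 genes thus had 2 horns far above the other 21, one in HG+ORG and one in SHAM. HG+ORG horn 18 was not among the high horns for these genes, with 89.7 CPM of Egln3, 8.91 CPM of Ankrd37 and 74.9 CPM of Ndrg1.

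Bnip3, a mitophagy receptor, was high in a further horn, with 45.1 CPM in HG+ORG horn 21, 59.2 CPM in HG horn 12 and 67.8 CPM in SHAM horn 3, against at most 24.5 CPM in the others. Mxi1, a MAX-binding repressor, had 98.6 CPM in HG+ORG horn 21 and 129 CPM in SHAM horn 3, against 17.8 to 69.6 CPM. Ddit4, an inhibitor of mTORC1 signalling, was instead highest in SHAM horns 4 and 3, with 261 and 249 CPM, and had 23.7 to 152 CPM in the other horns. Car9, the carbonic anhydrase often used as a hypoxia marker, had medians of 14.0 CPM in HG+ORG, 13.1 in HG, 10.5 in PBS and 15.5 in SHAM. It ran from 1.79 CPM in HG horn 14 to 30.7 CPM in HG+ORG horn 21. The next highest values were 27.6 CPM in HG+ORG horn 19 and 25.3 CPM in SHAM horn 3.

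**Figure D2:**
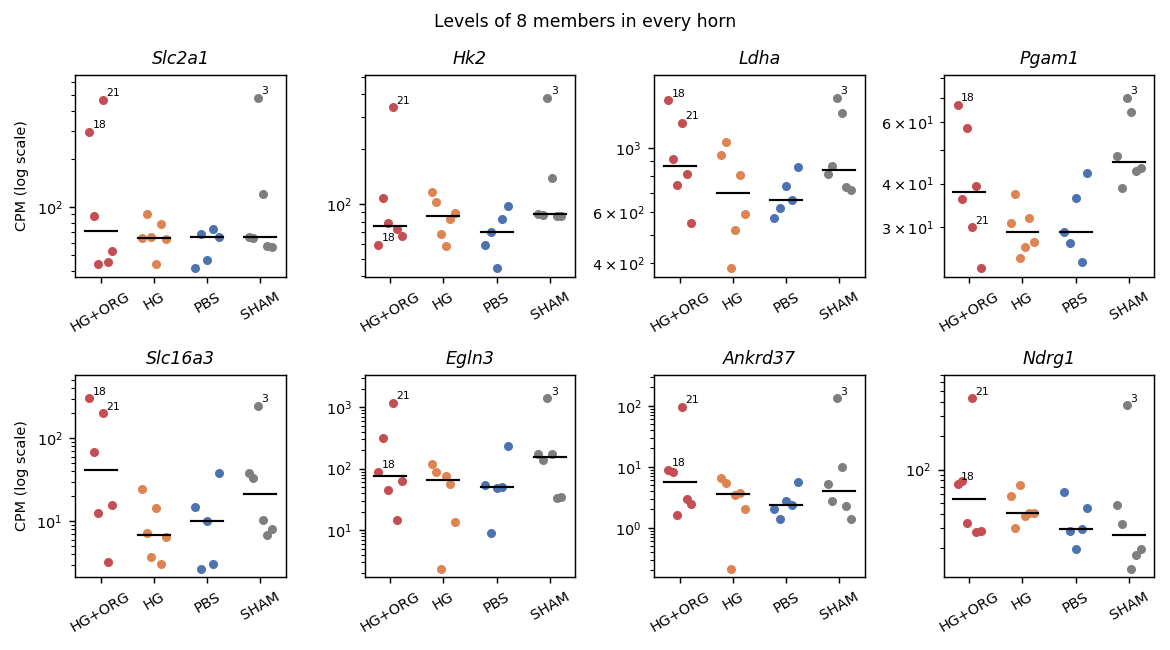
CPM on a log axis of 8 of the genes in every horn (points), by group, with a bar at the group median and the numbers of HG+ORG horns 18 and 21 and SHAM horn 3 beside their points. In Slc2a1, Hk2, Egln3, Ankrd37 and Ndrg1 the points 21 and 3 lie above all others, and in Pgam1 every HG horn lies below every SHAM horn.

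Some hypoxia genes outside the list were also high in HG+ORG horn 21 and SHAM horn 3. Adm, which encodes the vasodilator adrenomedullin, had 146 CPM in HG+ORG horn 21 and 130 CPM in SHAM horn 3, against 0.606 to 21.4 CPM in the other 21. Ero1a, an oxidase of the endoplasmic reticulum, had 406 CPM in HG+ORG horn 21 and 486 CPM in SHAM horn 3, against at most 87.9 CPM. The angiogenic factor Vegfa had 674 CPM in HG+ORG horn 21 and 494 CPM in SHAM horn 3, against at most 350 CPM. Adm, Ero1a and Vegfa were chosen after their values were seen, out of 38 further hypoxia genes that were listed, all of which were in the table. Over those 38, at least 2 times the all-horn median was reached by 18 in HG+ORG horn 21, by 16 in HG+ORG horn 18 and by 14 in SHAM horn 3, and by at most 8 in any other horn.

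**Figure D3:**
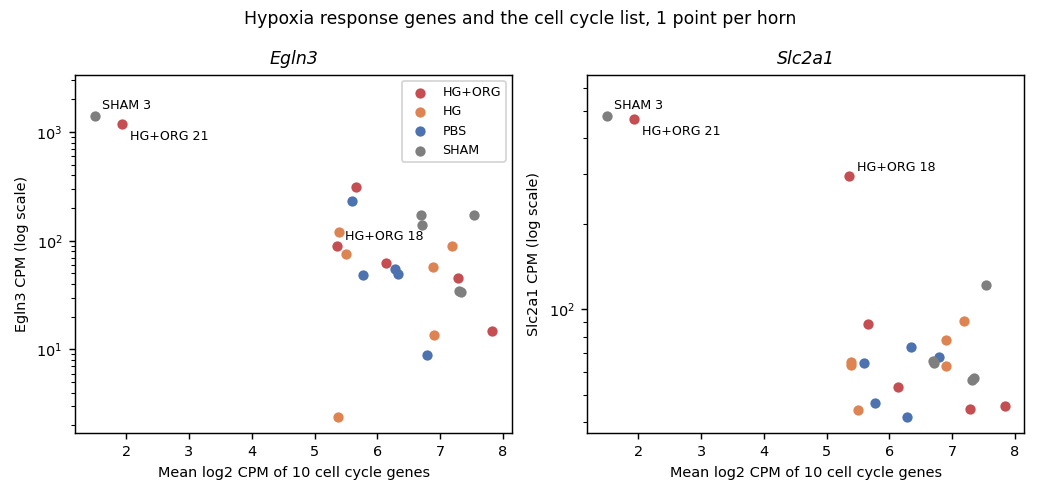
CPM of Egln3 and Slc2a1 (log axes) against the mean log2 CPM of 10 cell cycle genes, 1 point per horn, coloured by group. HG+ORG 21 and SHAM 3 lie alone at the upper left, with cell cycle means of 1.94 and 1.50, while HG+ORG 18 lies at 5.36 with a high Slc2a1.

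Among the oxygen sensors, Egln1, the main prolyl hydroxylase, had 444 CPM in HG+ORG horn 21 and 746 CPM in SHAM horn 3, against 93.9 to 322 CPM in the other 21. Vhl, the ligase subunit that recognises hydroxylated HIF, had the narrowest range of the 34 genes, from 18.6 CPM in SHAM horn 4 to 47.6 CPM in HG horn 17. Hif1a had medians of 194 CPM in HG+ORG, 273 in HG, 195 in PBS and 231 in SHAM, and its highest value was 680 CPM in PBS horn 8. HG+ORG horn 21 and SHAM horn 3, with 125 and 156 CPM of Hif1a, were not high in the transcript of the factor. Epas1, which encodes HIF2 alpha, did rank high there, with 315 CPM in HG+ORG horn 21, 301 CPM in HG+ORG horn 18 and 491 CPM in SHAM horn 3, against at most 198 CPM in the other 20.

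Of the glucose transporters, Slc2a1 (GLUT1) had 44.5, 71.0 and 468 CPM as lowest, median and highest values in HG+ORG, 44.1, 64.7 and 91.0 CPM in HG, and 56.6, 65.1 and 478 CPM in SHAM, with 41.6, 67.8, 47.0, 73.6 and 64.9 CPM in the 5 PBS horns. Its 3 high values were 468 and 294 CPM in HG+ORG horns 21 and 18 and 478 CPM in SHAM horn 3, and no other horn passed 121 CPM. Slc2a3 (GLUT3), a high-affinity transporter, had 1082 CPM in HG horn 14 and 146 CPM in PBS horn 8, against 0.617 to 46.9 CPM in the other 21 horns. Slc2a3 thus marked other horns than Slc2a1, and SHAM horn 3 held only 1.28 CPM of it.

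Hexokinase 2 (Hk2), which traps glucose in the cell as its phosphate, had 341 CPM in HG+ORG horn 21 and 382 CPM in SHAM horn 3, against 44.3 to 138 CPM in the other 21 horns. Hexokinase 1 (Hk1) was lowest of all horns in HG+ORG horn 21 at 29.4 CPM, with 30.9 CPM in SHAM horn 3, and highest in PBS horn 8 at 150 CPM. Gpi1, which converts glucose phosphate to fructose phosphate, moved within a narrower span, from 188 CPM in HG horn 17 to 575 CPM in SHAM horn 3.

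Phosphofructokinase sets the pace of glycolysis, and its subunits differed in where they were high. Pfkp, the platelet type, had 178 CPM in HG+ORG horn 18, 75.5 CPM in HG+ORG horn 21 and 74.5 CPM in SHAM horn 3, and 12.5 to 32.3 CPM in the other 20. Pfkl, the liver type, had medians of 124 CPM in HG+ORG, 83.7 in HG, 86.4 in PBS and 141 in SHAM. Pfkm, the muscle type, ran the other way, with medians of 12.5 CPM in HG+ORG, 15.2 in HG, 15.4 in PBS and 11.2 in SHAM. Of the kinases that make its activator fructose 2,6-bisphosphate, Pfkfb3 was highest in HG horn 14 at 467 CPM and Pfkfb4 in HG+ORG horn 18 at 48.4 CPM.

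By median CPM per kilobase of exon, Ldha came first with 243, followed by Aldoa with 191, Ldhb with 160, Tpi1 with 112 and Pkm with 98.9, and Eno2 came last of the 34 with 0.299. Aldolase A (Aldoa) had 2133 CPM in HG+ORG horn 18, 1791 CPM in HG+ORG horn 21 and 1814 CPM in SHAM horn 3, against 263 to 992 CPM in the other 20. Pyruvate kinase M (Pkm) had 1854 CPM in HG+ORG horn 18 and 212 to 1020 CPM in the other 22. Enolase 2 (Eno2), the neuronal type, had 21.2 CPM in HG+ORG horn 18 and at most 7.73 CPM elsewhere. Many genes of these steps have near-identical processed pseudogenes, and the sources used here do not say how reads that fit several places were counted. Gapdh, the enzyme between Tpi1 and Pgk1 and named after its values were seen, was counted at 4.88 to 22.5 CPM. Levels of such genes are therefore uncertain.

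Lactate dehydrogenase A (Ldha), which makes lactate, had 1459 CPM in HG+ORG horn 18 and 1485 CPM in SHAM horn 3, and its group medians were 862 CPM in HG+ORG, 697 in HG, 662 in PBS and 837 in SHAM. Lactate dehydrogenase B (Ldhb), the form of oxidative tissues, split the horns of every group, from 31.8 to 644 CPM in HG+ORG, 31.1 to 263 in HG, 73.7 to 339 in PBS and 37.8 to 376 in SHAM. The lactate exporter Slc16a3 (MCT4) had 303 and 201 CPM in HG+ORG horns 18 and 21 and 245 CPM in SHAM horn 3, and 2.69 to 68.0 CPM in the other 20. Slc16a1 (MCT1), which carries lactate in either direction, was highest in SHAM horn 3 at 340 CPM. Pdk1, a kinase that inhibits pyruvate dehydrogenase in mitochondria, had 66.9 CPM in HG+ORG horn 21 and 117 CPM in SHAM horn 3, against 11.9 to 58.4 CPM in the other 21.

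Between groups, no gene passed an adjusted p of 0.05 in edgeR's quasi-likelihood test in any of 6 pairwise contrasts, in the 3 injured groups together against SHAM, or over the 4 groups, so none of the 34 did. At an unadjusted p under 0.05 there were 385 genes (PBS against SHAM) to 1996 genes (HG against SHAM). limma-voom also called no gene in any comparison, while DESeq2 called 172 genes in HG+ORG against HG, 1 in HG+ORG against PBS, 95 in HG+ORG against SHAM, none in HG against PBS, 292 in HG against SHAM, 2 in PBS against SHAM, 6 in the injured groups against SHAM and 295 over the 4 groups. Of the 34, DESeq2 called Slc16a3 in HG+ORG against HG. The contrasts share horns (the same SHAM horns enter 4 of them), so their values are given side by side and not as independent evidence. The p-values measure the spread between horns, which may share a mouse. Counts below use an unadjusted p under 0.05 and do not amount to calls.

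In HG+ORG against HG, 13 of the 34 genes were at an unadjusted p under 0.05, against 9.81% of all 17708 genes tested. Of these, 12 were higher, against 5.18% of all genes, and 1 was lower, against 4.63%. With 1 horn left out the count ran from 5 to 17. It was 5 without HG horn 14, 5 without HG horn 17, 8 without HG horn 15, 8 without HG horn 16, 6 without HG+ORG horn 18 and 7 without HG+ORG horn 21. The median log2 fold over the 34 was 0.53, with 0.04 over all genes, and 27 folds were positive. Pkm had 409, 662 and 1854 CPM (lowest, median, highest) in HG+ORG and 271, 351 and 530 CPM in HG, and the groups overlapped. Its log2 fold was 1.15 ± 0.34 (SE; unadjusted p = 0.0026, adjusted p = 0.27). Slc16a3 had 3.19, 42.0 and 303 CPM in HG+ORG against 3.04, 6.92 and 24.5 CPM in HG, with a log2 fold of 3.34 ± 1.08 (adjusted p = 0.281), and passed in DESeq2 alone of the tools run (DESeq2 log2 fold 3.36, adjusted p = 0.0355). The Slc16a3 values of the groups overlapped, and HG+ORG reached further up. Slc2a3 was the gene on the lower side, with a log2 fold of -3.54 ± 1.43 (adjusted p = 0.385) that came to 0.09 without HG horn 14. Without HG+ORG horns 18 and 21 the median over the 34 was 0.09, the Slc16a3 fold was 1.33, and 4 genes were at an unadjusted p under 0.05, against 14.4% of all genes. Without SHAM horn 3 as well, 5 genes were at an unadjusted p under 0.05, against 16.5% of all genes, of which Ldhb (1.61) and Pkm (0.61) were higher in HG+ORG and Eno2 (-1.81), Epas1 (-1.24) and Slc2a3 (-3.95) lower. Smooth muscle markers were lower in HG+ORG than in HG at an unadjusted p under 0.05 in 8 of 10 (median log2 fold -2.89) and adipocyte markers in 6 of 8 (-6.93), while neutrophil markers were higher in 5 of 7 (4.47) and macrophage markers in 7 of 10 (1.86). The summed smooth muscle markers ran from 27.1 to 512 CPM in HG+ORG and 85.3 to 3368 CPM in HG. The summed neutrophil markers ran from 12.7 to 5635 CPM in HG+ORG, the highest in horn 18, and 21.4 to 81.2 CPM in HG. The summed macrophage markers were 22337 CPM in HG+ORG horn 18, 260 to 2370 CPM in the other HG+ORG horns and 402 to 1134 CPM in HG. The summed adipocyte markers ran from 20.0 to 659 CPM in HG+ORG and 17.7 to 13485 CPM in HG, the highest in horn 12. The part of these markers in the folds of the 34 genes was not tested.

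In HG+ORG against PBS, 6 of the 34 were at an unadjusted p under 0.05, against 6.09% of all genes, and all 6 were higher, against 4.86% in that direction and 1.23% in the other. They were Pfkp, Pkm, Slc16a3, Slc2a1, Ankrd37 and Aldoa. The count was 1 without HG+ORG horn 18, 3 without HG+ORG horn 21, 3 without PBS horn 7, 3 without PBS horn 9 and 10 without PBS horn 11, and none of the 34 was at this p without HG+ORG horns 18 and 21. Pfkp had 15.3, 25.1 and 178 CPM in HG+ORG, against 24.0, 12.5, 13.1, 13.1 and 22.9 CPM in the 5 PBS horns, and the ranges overlapped. Its log2 fold was 1.70 ± 0.56 (adjusted p = 0.709), and 0.25 without HG+ORG horns 18 and 21. The median fold over the 34 was 0.51, with 28 positive, and 0.15 without those horns. The folds of Slc2a1 and Aldoa were then -0.02 and -0.01, against 1.49 and 1.03 with all horns. Macrophage markers were higher in HG+ORG than in PBS at an unadjusted p under 0.05 in 8 of 10 (median log2 fold 2.32). Their sum was 22337 CPM in HG+ORG horn 18, 260 to 2370 CPM in the other HG+ORG horns and 191 to 878 CPM in PBS. Neutrophil markers were higher in 3 of 7 (2.78). Their sum was 5635 CPM in HG+ORG horn 18, 12.7 to 387 CPM in the other HG+ORG horns and 9.36 to 185 CPM in PBS. Smooth muscle markers were lower in 2 of 10 (-1.60), with sums of 27.1 to 512 CPM in HG+ORG and 26.4 to 1611 CPM in PBS. The part of these markers in the folds of the 34 genes was not tested.

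In HG+ORG against SHAM, 1 of the 34, Eno2, was at an unadjusted p under 0.05, against 9.91% of all genes (8.09% higher and 1.82% lower), with a log2 fold of 2.29 ± 0.84 (adjusted p = 0.329). Eno2 had 0.816, 1.50 and 21.2 CPM in HG+ORG and 0.123, 0.808 and 2.27 CPM in SHAM, and its fold was 0.66 without HG+ORG horn 18. The median over the 34 was -0.02 with 16 positive folds, and both groups held high horns. The count of 1 was 7 without SHAM horn 3, all higher in HG+ORG, and 6 without HG+ORG horn 21, of which 5 were lower. It was 3 without HG+ORG horn 22, 2 without HG+ORG horn 20 and 2 without HG+ORG horn 23, and none of the 34 was at this p without all 3 horns, against 1.92% of all genes. The median was 0.31 without SHAM horn 3, -0.41 without HG+ORG horns 18 and 21, and -0.09 without all 3. Macrophage markers were higher in HG+ORG than in SHAM at an unadjusted p under 0.05 in 8 of 10 (median log2 fold 2.79). Their sum was 22337 CPM in HG+ORG horn 18, 260 to 2370 CPM in the other HG+ORG horns and 250 to 1106 CPM in SHAM. Neutrophil markers were higher in 3 of 7 (2.42). Their sum was 5635 CPM in HG+ORG horn 18, 12.7 to 387 CPM in the other HG+ORG horns and 12.4 to 380 CPM in SHAM. Adipocyte markers were lower in 6 of 8 (-5.27). Their sum was 2677 and 2033 CPM in SHAM horns 5 and 6 and 23.8 to 419 CPM in the other SHAM horns. In HG+ORG it was 20.0 to 659 CPM, so the groups overlapped. The values of SHAM horns 5 and 6 were very alike, and whether they share a mouse is not given. The part of these markers in the folds of the 34 genes was not tested.

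**Figure D4:**
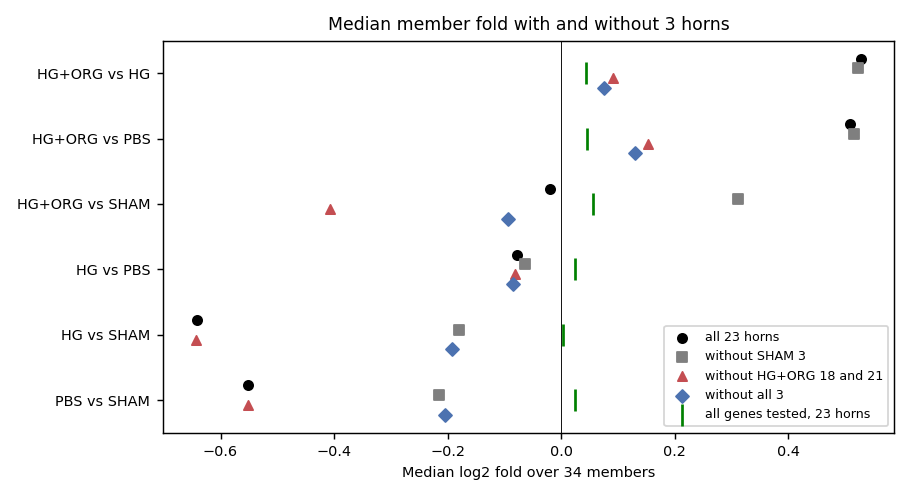
Median log2 fold over the 34 genes in each pairwise contrast (first group over second), with all 23 horns (circles), without SHAM 3 (squares), without HG+ORG 18 and 21 (triangles) and without all 3 (diamonds); ticks mark the median over all genes tested. The HG+ORG contrasts with HG and PBS move to 0.09 and 0.15 without HG+ORG 18 and 21, and the contrasts of HG and PBS with SHAM to -0.18 and -0.22 without SHAM 3.

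In HG against SHAM, 13 of the 34 were at an unadjusted p under 0.05, against 11.3% of all genes. Of these, 10 were lower, against 2.12% of all genes, and 3 were higher, against 9.15%. Without SHAM horn 3 the count was 6, with 3 lower and 3 higher. Without that horn and HG+ORG horns 18 and 21 it was 8, with 4 lower and 4 higher, against 17.3% of all genes, and Ndrg1 (log2 fold 0.85) was among the higher. Pgam1, the phosphoglycerate mutase, had 24.5, 29.0 and 37.5 CPM in HG and 38.8, 46.1 and 70.1 CPM in SHAM. Every HG horn lay below every SHAM horn in Pgam1, as in 0.243% of all genes tested, and no other listed gene separated a pair of groups in this way. Over all genes tested, every horn of the first group lay above every horn of the second in 0.0282% of genes (and below in 0.152%) in HG+ORG against HG, in 0.0508% (0.0565%) in HG+ORG against PBS, in 0.0621% (0.102%) in HG+ORG against SHAM, in 0.0734% (0.0791%) in HG against PBS, in 1.19% in HG against SHAM and in 0.181% (0.113%) in PBS against SHAM. The log2 fold of Pgam1 in HG against SHAM was -0.79 ± 0.23 (unadjusted p = 0.00221, adjusted p = 0.248) and -0.69 without all 3 horns, and it passed when HG and SHAM alone were fitted (adjusted p = 0.0472). Pgk1, the first ATP-yielding enzyme, had 33.5, 84.4 and 120 CPM in HG and 107, 143 and 333 CPM in SHAM, with a log2 fold of -1.02 ± 0.33 (adjusted p = 0.264) and -0.72 without the 3 horns. The other lower genes were Pfkl, Ankrd37, Eno1, Slc16a3, Tpi1, Pkm, Egln3 and Egln1.

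The 3 higher genes in HG against SHAM were Pfkm, Eno2 and Slc2a3. Pfkm had 11.1, 15.2 and 23.3 CPM in HG and 5.55, 11.2 and 13.0 CPM in SHAM, a log2 fold of 0.60 ± 0.21 (adjusted p = 0.266). Eno2 had 1.21, 4.06 and 7.73 CPM in HG and 0.123, 0.808 and 2.27 CPM in SHAM, a log2 fold of 2.09 ± 0.83 (adjusted p = 0.333) that was 2.51 without the 3 horns. The fold of Slc2a3, 3.43 ± 1.42 (adjusted p = 0.353), was -0.20 without HG horn 14. The median fold over the 34 was -0.64 with 27 negative, and -0.18 without SHAM horn 3. Ankrd37, with -2.84 over all horns, had -0.26 without that horn, and Egln3 had -0.90 in place of -2.45. Markers of other cell types were also higher in HG than in SHAM at an unadjusted p under 0.05, in 10 of 10 for smooth muscle (median log2 fold 3.90), 10 of 10 for endothelium (2.91), 8 of 10 for endometrial stroma (2.63) and 5 of 5 for red cells (2.34). The summed smooth muscle markers ran from 85.3 to 3368 CPM in HG and reached at most 129 CPM in SHAM, and the endothelial markers from 77.8 to 852 CPM in HG and 20.3 to 116 CPM in SHAM. The stromal markers ran from 789 to 3262 CPM in HG and 511 to 1241 CPM in SHAM, and the red cell markers from 77.5 to 602 CPM in HG and 9.01 to 161 CPM in SHAM. The part of these markers in the folds of the 34 genes was not tested.

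In PBS against SHAM, 6 of the 34 were at an unadjusted p under 0.05, against 2.17% of all genes. Pgam1, Ankrd37, Hk2, Pdk1 and Pfkl were lower, against 0.655% of all genes, and Pfkm was higher, against 1.52%. The count was 2 without SHAM horn 3, 2 without PBS horn 7, 2 without PBS horn 8 and 10 without PBS horn 11. Without SHAM horn 3 and HG+ORG horns 18 and 21, Pfkm and Pgam1 were left at this p, against 3.68% of all genes. Pgam1 had 29.2, 27.0, 36.4, 23.9 and 42.8 CPM in the 5 PBS horns against 38.8, 46.1 and 70.1 CPM in SHAM, so that 1 PBS horn lay within the SHAM range. Its log2 fold was -0.69 ± 0.24 (adjusted p = 1.00), and -0.58 without the 3 horns. Pfkm had 17.0, 16.3, 15.4, 15.4 and 11.4 CPM in PBS and 5.55 to 13.0 CPM in SHAM, with a log2 fold of 0.51 ± 0.21 (adjusted p = 1.00). The median over the 34 was -0.55, with 26 negative, and -0.22 without SHAM horn 3. Ankrd37 had -3.16 with all horns and -0.59 without SHAM horn 3. Smooth muscle markers were higher in PBS than in SHAM at an unadjusted p under 0.05 in 6 of 10 (median log2 fold 2.72). Their sum was 510 and 1611 CPM in PBS horns 7 and 10 and 26.4 to 91.7 CPM in the other PBS horns. In SHAM it was at most 129 CPM. Endothelial markers were higher in 5 of 10 (2.38). Their sum was 570 and 661 CPM in PBS horns 7 and 10, at most 21.8 in the others and 20.3 to 116 in SHAM. Red cell markers were higher in 5 of 5 (2.38). Their sum was 675 and 408 CPM in PBS horns 7 and 11, at most 117 in the others and at most 161 in SHAM. Whether these markers had a part in the folds of the 34 genes was not tested.

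In HG against PBS, none of the 34 was at an unadjusted p under 0.05, against 3.37% of all genes (2.38% higher and 0.988% lower), and the median fold was -0.08 with 16 positive and 18 negative. DESeq2 and limma-voom called none of the 34 in this contrast, and the count at an unadjusted p was 1 without PBS horn 8 and 1 without HG+ORG horn 18. The 3 injured groups together differed from SHAM at an unadjusted p under 0.05 in 7 of the 34, against 7.58% of all genes. Of these, Pfkm and Eno2 were higher, against 5.99%, and Pgam1, Ankrd37, Pgk1, Pfkl and Egln1 lower, against 1.59%. The count was 4 without SHAM horn 3, 4 without SHAM horn 4, 12 without SHAM horn 5, 11 without SHAM horn 6 and 13 without HG+ORG horn 21. Without SHAM horn 3 and HG+ORG horns 18 and 21 it was 4, against 4.68% of all genes. Over the 4 groups 10 of the 34 were at an unadjusted p under 0.05, against 10.1% of all genes, and Pgam1 had the smallest p of them (0.00775, adjusted p = 0.251). Without the 3 horns, 3 of the 34 were at this p over the 4 groups, against 12.3% of all genes.

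The balance between paralogs was compared as the log2 ratio of their counts within a horn, which does not depend on scaling. In 66 exact two-sided permutation tests (11 ratios in 6 contrasts) none passed at an adjusted p of 0.05, the smallest being 0.286. Eno2 over Eno1 averaged -5.75 ± 1.58 in HG and -8.91 ± 1.34 in SHAM (SD, n = 6 each; exact permutation p = 0.00433, where 0.00216 is the smallest that 6 against 6 allow). Eno2 was near the counting floor, with 0.123 to 2.27 CPM in SHAM and 1.21 to 7.73 CPM in HG. This ratio therefore also depends on the 0.5 added to both counts and on depth. Eno1 was lowest of all horns in HG horn 14, at 66.6 CPM. Pfkl over Pfkm averaged 2.49 ± 0.71 in HG and 3.88 ± 0.91 in SHAM (exact permutation p = 0.0152, adjusted p = 0.5), and 2.60 ± 0.77 in PBS (exact permutation p = 0.0411 against SHAM, adjusted p = 0.516). Slc16a3 over Slc16a1 averaged -0.34 ± 1.67 in HG+ORG and -3.06 ± 1.89 in HG (exact permutation p = 0.026, adjusted p = 0.516). Ldha over Ldhb was positive in every horn, from 0.21 in HG+ORG horn 20 to 5.52 in HG+ORG horn 18, and averaged 2.32 ± 2.13 in HG+ORG, 2.87 ± 1.55 in HG, 1.56 ± 0.91 in PBS (n = 5) and 2.44 ± 1.96 in SHAM.

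**Figure D5:**
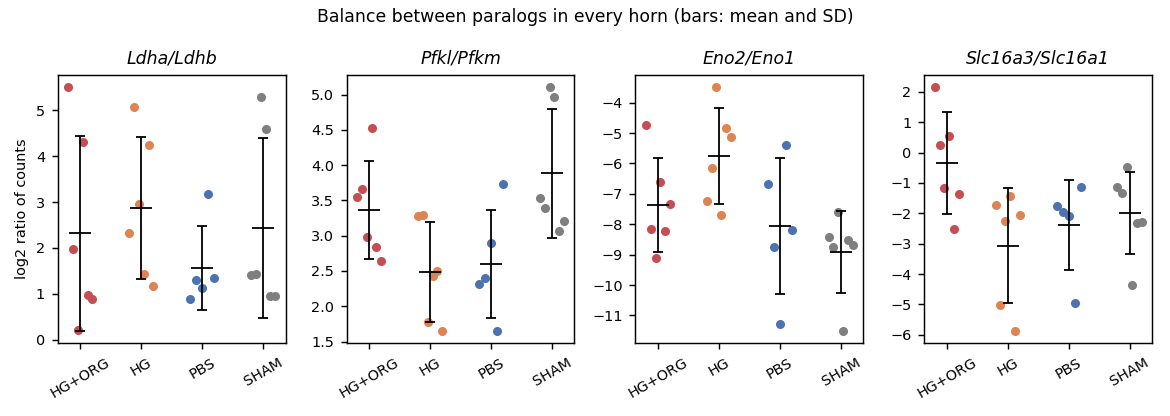
log2 ratio of counts of 4 paralog pairs in every horn (points), by group, with the mean and SD. Eno2 over Eno1 is higher in HG than in SHAM on average, with overlapping points, and Ldha over Ldhb has high and low horns in every group.

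With the group means taken off, some genes varied together across the 23 horns. Of 17 relations computed, 8 had a Benjamini-Hochberg adjusted permutation p of Pearson's r under 0.05. Aldoa and Tpi1, which make and interconvert the triose phosphates, gave r = 0.91 and rho = 0.92 (permutation p = 1e-05 each, the smallest the resampling can give), and r = 0.89 without the 2 horns farthest from the median. Pgk1 and Ldha gave r = 0.88 and rho = 0.80 (permutation p = 1e-05 each, adjusted p = 8.5e-05), and 0.81 without HG+ORG horns 18 and 21 and SHAM horn 3. Slc2a1 and Hk2 gave r = 0.76 and rho = 0.61 (permutation p = 0.00507 and 0.00661, adjusted p = 0.0186 and 0.0225). Their r was 0.36 without the 2 farthest horns, HG+ORG 21 and SHAM 3, which left HG+ORG 18 in, and 0.76 without all 3. Slc2a3 ran against Hk2, with r = -0.50 and rho = -0.58 (permutation p = 0.00648 and 0.00553, adjusted p = 0.0186 and 0.0225), and -0.61 without HG 14 and PBS 8. Slc16a3 and the macrophage markers gave r = 0.59 and rho = 0.46 (permutation p = 0.0149 and 0.0535, adjusted p = 0.0316 and 0.101), and r = 0.47 without the 3 horns (permutation p = 0.0878, adjusted p = 0.227). Without HG+ORG horn 18 alone the relation was no longer past the threshold (r = 0.46, permutation p = 0.0518, adjusted p = 0.0735). Slc2a1 and the epithelial markers gave r = 0.03 over all horns (permutation p = 0.96, adjusted p = 0.96), 0.80 without HG+ORG horn 18 (permutation p = 0.00137, adjusted p = 0.00582) and 0.44 without the 3 horns (permutation p = 0.0671, adjusted p = 0.227). The others of the 8 were Pgk1 with Pdk1 (r = 0.68), Bnip3 with Ankrd37 (r = 0.61) and Ldha with Slc16a3 (r = 0.57). Without the 3 horns their r was 0.40, 0.21 and 0.24 (adjusted permutation p = 0.273, 0.484 and 0.452). Slc2a3 with Hk2 then gave -0.43 (adjusted permutation p = 0.227). Hif1a with the macrophage markers gave r = -0.26 over all horns (adjusted permutation p = 0.414). Without the 3 horns r was -0.66 (adjusted permutation p = 0.0271) and rho was -0.56 (adjusted permutation p = 0.056). With PBS 8 and HG+ORG 22, the 2 farthest horns, also left out, r was -0.38.

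Other genes of sugar metabolism and hypoxia, 80 in the table over 4 lists, held no gene past an adjusted p of 0.05 either. At an unadjusted p under 0.05 there were 10 of the 80 in HG+ORG against HG (6 higher, 4 lower), against 9.81% of all genes tested. The count was 9 in HG+ORG against PBS (all higher, against 6.09% of all genes). It was 7 in HG+ORG against SHAM (6 higher, 1 lower, against 9.91%) and 6 in HG against PBS (all higher, against 3.37%). In HG against SHAM it was 10 (8 higher, 2 lower, against 11.3%), and in PBS against SHAM 1 (lower, against 2.17%). The smallest p in the HG+ORG contrasts belonged mostly to genes that were high in HG+ORG horn 18. Hk3, the hexokinase of myeloid cells, had 391 CPM in that horn and 0.135 to 8.03 CPM in the other 22 (log2 fold against SHAM 5.40 ± 1.32, adjusted p = 0.209). Hmox1, which degrades heme, had 1057 CPM there and at most 53.8 CPM elsewhere (log2 fold against PBS 3.30 ± 0.94, adjusted p = 0.709). Hilpda, a lipid droplet protein induced by hypoxia, had 926 CPM there and at most 50.1 CPM elsewhere (log2 fold against SHAM 3.44 ± 0.92, adjusted p = 0.209).

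In HG+ORG against HG, Pck1, an enzyme of gluconeogenesis that fat tissue also makes, had the smallest p, with a log2 fold of -3.83 ± 1.00 (adjusted p = 0.27), and 581 CPM in HG horn 12, where the adipocyte markers were highest of all horns (mean log2 CPM 9.51). Pck1 (2.66 ± 1.02) and Pfkfb1 (1.28 ± 0.55) led HG against PBS (adjusted p = 0.991 each). In HG against SHAM, Pygm, the muscle glycogen phosphorylase, had a log2 fold of 2.57 ± 0.75 (adjusted p = 0.248) and Ero1a -1.77 ± 0.70 (adjusted p = 0.323). In PBS against SHAM the smallest p belonged to Ak4 (-1.77 ± 0.76) and Ero1a (-1.50 ± 0.74), with adjusted p = 1.00 for both. None of these genes passed. Ero1a was among the genes high in SHAM horn 3, and its folds are given with all horns only.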

How the data were processed

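The authors deposited raw read counts per gene, 1 column per horn. Per the labels' protocols, poly(A) RNA was made into strand-marking libraries and sequenced as single-end reads of 75 bases. The submitters' processing notes name HISAT2 2.2.1 and featureCounts 2.0.3 (Subread) with build GRCm39, and also Trimmomatic 0.39, SAMtools 1.21, FastQC 0.11.9, MultiQC 1.27.1, DESeq2 1.42.1 and R 4.3.1. The sources used here do not give the annotation, the strand setting or the handling of reads with several matches. Each deposited feature had at least 10 counts in at least 3 horns.

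Symbols were matched by gene ID to the reference tables. Aldoa stood on 2 rows and ENSMUSG00000030695, the row with the longer exon length, was used. Ero1a was matched by its synonym Ero1l. Exon lengths came from an annotation of GRCm38 and served only for CPM per kilobase.

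The counts of all 23 horns went into edgeR 4.0.16 (R 4.3.3), with TMM factors and filterByExpr (17708 features kept, 974 removed), as 1 quasi-likelihood fit with no covariates and Benjamini-Hochberg adjustment over all genes at 0.05. edgeR prints no standard error, so each SE is the size of the log2 fold divided by the root of its F statistic. Log2 CPM used a prior count of 2, and ratios 0.5 added to both counts. Relations used 100000 resamples. The test was also run on simulated counts, and the outcome is not given here. Depth was 7920918 to 14902952 counts per horn. Alternatives were DESeq2 1.42.0, limma-voom (limma 3.58.1), RLE factors, no low-count filter, no mitochondrial genes, 2 groups only, SHAM horns 5 and 6 summed, each horn left out, HG+ORG horns 18 and 21 left out with or without SHAM horn 3 (added after the data were seen), 5 added to both counts of a ratio and relations without centring. The genes, lists and tests were chosen with earlier results of these data known. All 34 genes may be named, and of 4 further pathway lists the 2 genes with the smallest p in a contrast where none passed; others named were chosen after their values were seen.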

Additional observations from a re-analysis of the deposited data

Results flagged for a closer look

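Of 180 sets of values examined (34 levels and 11 ratios in 4 groups), 19 held a horn far from the others of its group. Chance alone gives such a horn in about 1 in 20 sets. Among the 136 sets of levels 15 did so, 7 of them in SHAM horn 3 and 3 in SHAM horn 4.

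SHAM horn 3 stood apart as the highest of its group in log2 CPM of Slc2a1 (8.90, others at most 6.93), Hk2 (8.58, others at most 7.11), Gpi1 (9.17, others at most 8.19), Pfkp (6.22, others at most 4.46), Tpi1 (9.68, others at most 8.53), Egln1 (9.54, others at most 8.33) and Mxi1 (7.01, others at most 5.57). In HG+ORG, horn 21 stood apart in Hk2 (8.41, others at most 6.75). The cell cycle and epithelial markers that stood apart in HG+ORG horn 21 and SHAM horn 3 were given above, and their part in these levels was not tested.

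SHAM horn 4 was the lowest of its group in Pfkm (2.51), Pfkfb3 (4.12) and Vhl (4.23). PBS horn 11 was lowest in Pfkm (3.53) and PBS horn 10 in Ldhb (6.21, others at least 7.98). PBS horn 8 was highest in Hif1a (9.41, others at most 7.74) and HG horn 12 in Bnip3 (5.89, others at most 2.98).

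Among the log2 count ratios, PBS horn 10 stood apart in Ldha over Ldhb (3.17) and in Slc16a3 over Slc16a1 (-4.97), PBS horn 8 in Aldoc over Aldoa (-4.94) and SHAM horn 4 in Eno2 over Eno1 (-11.51).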

How the results depend on the processing

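No paired analysis was possible because the replicate numbers, 1 to 23, are not shared between groups. Of 34 genes in 6 pairwise contrasts, the calls under edgeR kept their count of 0 except where named here. DESeq2 called 172 genes in HG+ORG against HG (Slc16a3 among them, 1 of the 34), 1 in HG+ORG against PBS, 95 in HG+ORG against SHAM, 292 in HG against SHAM, 2 in PBS against SHAM, 6 in the injured groups against SHAM and 295 over the 4 groups. Fitting HG and SHAM alone called 386 genes, Pgam1 (1 of the 34) among them. Leaving out single horns called 0 to 1 genes in HG+ORG against HG (1 without PBS horn 10) and 0 to 39 over the 4 groups (39 without HG+ORG horn 22), and 0 of the 34 genes in any contrast. SHAM horns 5 and 6 were also summed, as their values were very alike (Hk2 85.7 and 85.4 CPM, Ldhb 376 and 372 CPM). Whether they share a mouse is not given. Of the 34, 9 were then at an unadjusted p under 0.05 in PBS against SHAM, 14 in HG against SHAM and 12 in the injured groups against SHAM. The shares of all genes were 2.29%, 11.1% and 7.34%. With these horns apart the counts were 6, 13 and 7. The cause of these differences was not tested.

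With 1 horn left out, the median fold over the 34 genes ran from 0.34 to 0.70 in HG+ORG against HG, 0.32 to 0.67 in HG+ORG against PBS, -0.15 to 0.31 in HG+ORG against SHAM, -0.15 to 0.13 in HG against PBS, -0.77 to -0.18 in HG against SHAM, -0.66 to -0.22 in PBS against SHAM and -0.47 to -0.01 in the injured groups against SHAM. The ends nearest to or past 0 came without SHAM horn 3 in the last 3 of these.

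Slc2a3 reversed without HG horn 14 alone, ranging from -4.19 to 0.094 in HG+ORG against HG and from -0.20 to 3.87 in HG against SHAM. Ankrd37 in the injured groups against SHAM ranged from -2.84 to 0.46, the last without SHAM horn 3. Without HG+ORG horns 18 and 21, and without these and SHAM horn 3, the folds that reversed were Slc2a1 (-0.21 and -0.23) and Pfkp (-0.15 and -0.17) in HG+ORG against HG, and Slc2a1 (-0.020 and -0.045) and Aldoa (-0.010 and -0.028) in HG+ORG against PBS. Relations at an adjusted p under 0.05 numbered 4 without the 3 horns, 10 without HG+ORG horn 18 and 10 without centring, against 8. The number of paralog ratios past the threshold was 0 under every setting run. With 5 or 6 horns a group and a median within-group SD of 0.83 in log2 CPM, differences between groups may be missed. The SD ran from 0.31 in Vhl to 2.39 in Slc2a3, so 0.83 is not a limit of detection for each gene.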
